A study of Mus musculus with 2 samples.

Results

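Pitx1, Dach1, Dach2, Six4, Eya1, Eya2 and Eya4 are 7 regulators of organ formation that were followed through arrays of embryonic mouse ureters. They were found by the gene name that the array files give each probe, which returned 10 probes for the 7 genes, among 39429 probes and 20507 genes tested. Pitx1 and Dach2 had been chosen for their ratios in this comparison, Pitx1 as lower and Dach2 as higher. Their values are therefore given here as a description without a test. The other 5 are their relatives and network partners and serve as the comparison.

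Each of 2 arrays was hybridised with a pair of RNAs from ureters of NMRI embryos at E14.5. The RNA labelled Gata2cKO came from Tbx18(cre/+);Gata2(fl/fl) embryos, and the RNA labelled control from Tbx18(+/+);Gata2(fl/?) embryos, with a second Gata2 allele that the label writes as a question mark. Array 1 compared female RNAs, with Gata2cKO in the dye Alexa Fluor 647 and control in 555, and array 2 compared male RNAs with the dyes exchanged. Cre recombinase replaced 1 copy of Tbx18, a gene active in the mesenchyme around the ureter, so loss of that copy, Cre itself and deletion of Gata2 came together in the RNA labelled Gata2cKO and cannot be told apart. Both RNAs of an array share at least 1 floxed Gata2 allele, and the labels give no number of embryos per RNA, so the spread between the arrays is the only replicate error.

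Pitx1 encodes a bicoid-type homeodomain factor known for specifying the hindlimb and for gene activation in the pituitary. Six4 and its relatives, named after sine oculis of the fly, are homeodomain factors that bind DNA together with Eya coactivators, which also carry a phosphatase domain. Dach proteins belong to the Ski/Sno group and act with these factors and Eya proteins, mostly as corepressors. In the kidney, Eya1 acts with Pax2 and Hox11 factors in the mesenchyme to switch on Gdnf, the signal that calls out the ureteric bud. Eya1 is also known for branchial and kidney malformations in people.

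Each of the values rests on the probes below, since a ratio on an array belongs to a stretch of a transcript. The last 30 bases of probes that are 60 bases long are shown, 5′ to 3′. Letters that match a poly(A) signal (Pitx1 and Eya2) or form a repeat (Eya1) are in capitals and the rest in lower case. Whether the matching letters act as a poly(A) signal was not tested.
Pitx1: cgtctATTAAAaccatagtcggagcgtgct
Dach1 probe 1: agaaccacgtttactgttattgtatttaat
Dach1 probe 2: tgttaagagactcttattaacctgttgtac
Dach2 probe 1: agcaaagctctgtgactgaatcataatttc
Dach2 probe 2: ctaattagctgtttcctattcctaatgatg
Dach2 probe 3: acaatgataaaaactgatcccagcctacta
Six4: ttgttattctgcatgttaaagctggaattc
Eya1: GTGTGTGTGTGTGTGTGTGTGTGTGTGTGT
Eya2: gcattcAATAAAaaccacgtttacatttta
Eya4: aaatatggttggaatattttaatactaata
Per the file headers the coordinates are on mm9. The Pitx1 probe lies at chr13:55926417-55926476 on the minus strand, Dach1 probe 1 at chr14:98186124-98186183 and probe 2 at chr14:98186562-98186621, both on the minus strand. The Dach2 probes 1, 2 and 3 lie on the plus strand at chrX:110949122-110949181, chrX:110946868-110946927 and chrX:110945354-110945413, a span of 3768 bases between their starts. The files tie probe 1 of Dach2 to another transcript than probes 2 and 3. The Six4 probe lies at chr12:74201246-74201305, that of Eya1 at chr1:14159982-14160041 and that of Eya4 at chr10:22824002-22824061, all on the minus strand, and that of Eya2 at chr2:165597072-165597131 on the plus strand. Exons were not assigned, for want of an annotation on mm9. The longest run of bases shared by a Dach1 and a Dach2 probe was 8. Over probes of different members the longest was 12, between Dach1 probe 1 and the Eya2 probe. In the Eya1 probe, 34 of the 60 bases were an unbroken GT repeat, and its part in the Eya1 signal was not tested.

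All 10 probes were well above background in both RNAs on both arrays, so none of the 7 genes passed the filter on dim probes through 1 group alone. Each had a single spot per array. The median spot signal over probes was 663.2 and 375.3 in the RNA labelled Gata2cKO on arrays 1 and 2, against 379.7 and 658.6 in the RNA labelled control, so 647 was the brighter dye on both. Gata2 itself was not lower where its loss was labelled. Its only probe gave log2 ratios (Gata2cKO over control) of 0.33 on array 1 and 0.54 on array 2, and the deleted stretch is not named, so this probe cannot check the label. Each direction below rests on the dyes in the labels. A pair of Y-linked genes went against the female label of array 1. Ddx3y had a signal of 664.8 in the RNA labelled Gata2cKO and 50.1 in the RNA labelled control there, and 6222 in Gata2cKO and 9222 in control on the male array. For Eif2s3y the signals were 850.8 in Gata2cKO and 58.9 in control on array 1, and 6716 in Gata2cKO and 10508 in control on array 2. These signals still carry the difference between the dyes. After normalization the log2 ratio of Ddx3y was 2.58 on array 1 and 0.28 on array 2, and that of Eif2s3y was 2.65 and 0.21. Each gene's ratio on array 2, printed below for every member, is its value without array 1. Ureteric mesenchyme and urothelium markers were present, with all 9 and all 13 listed genes detected.

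Pitx1 was the 1 gene of the 7 with less signal in the RNA labelled Gata2cKO. Its normalized log2 signal was 9.28 on array 1 and 9.62 on array 2 in that RNA, against 10.65 and 10.73 in the RNA labelled control. The groups did not overlap, in a gene chosen for its ratio, and the control values lay closer together than the Gata2cKO values. The log2 ratio was -1.37 on array 1 and -1.11 on array 2. Their mean was -1.24 ± 0.180 (SD, n = 2), a signal 2.36-fold lower. Ranked by the smaller of the ratios on the arrays, Pitx1 stood 15th among genes lower on both. In a bulk sample, fewer cells that make a transcript and less transcript per cell cannot be told apart.

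Dach2, the X-linked member of the Dach pair, was higher with every probe. Its brightest probe, which stands for the gene, had a normalized log2 signal of 12.39 and 12.42 in the RNA labelled Gata2cKO, against 11.22 and 11.29 in the RNA labelled control. The groups were more than 1 log2 unit apart on each array and their own values nearly coincided. The log2 ratio was 1.16 on array 1 and 1.13 on array 2. Their mean was 1.14 ± 0.0266 (SD, n = 2) or 2.21-fold, and Dach2 ranked 10th among genes higher on both arrays. Probe 2 gave log2 ratios of 0.95 and 1.36 and probe 3 gave 0.62 and 0.997. Of all genes tested, 0.273% were at least 1.5-fold higher on both arrays and 0.439% were at least 1.5-fold lower on both. Dach2 and Pitx1 are among them by choice, so nothing is read from these shares.

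**Figure D1:**
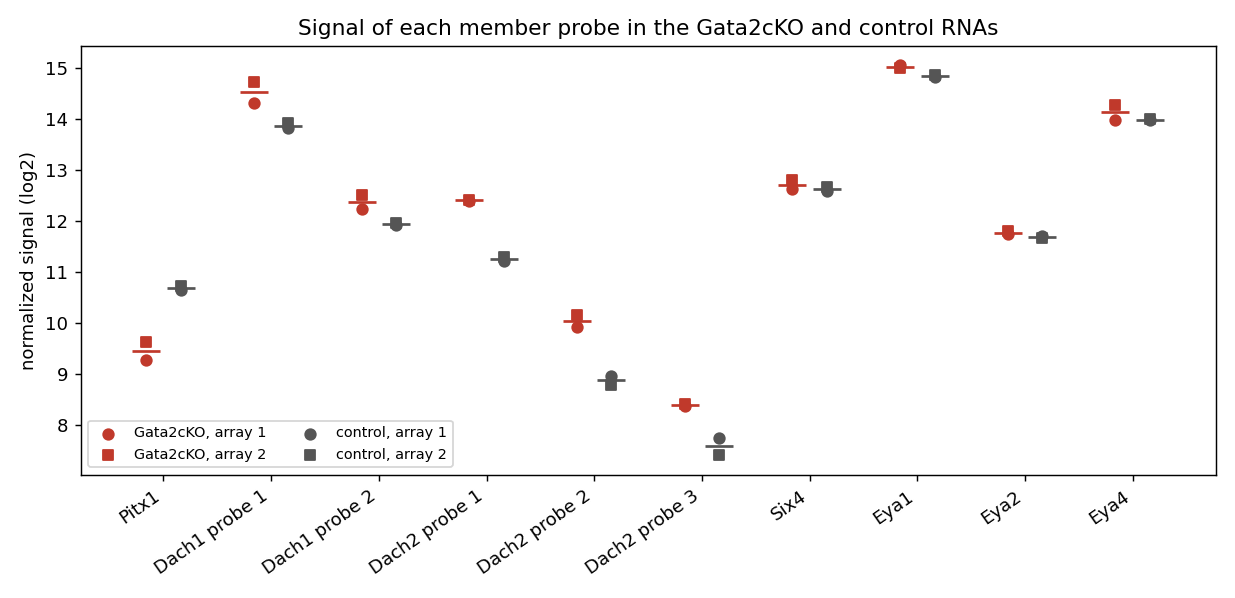
Normalized log2 signal of the 10 probes, with the RNA labelled Gata2cKO on the left (red) and the RNA labelled control on the right (grey) of each pair, circles for array 1, squares for array 2 and lines for the mean of 2 arrays. Pitx1 lies near 9.45 against 10.69, Dach2 probe 1 near 12.40 against 11.26, while Six4 and the Eya genes nearly coincide. Heights of different probes cannot be compared with each other.

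Dach1, the closest relative of Dach2, was higher too, by a smaller amount that did not pass the test over all genes. Its brighter probe had a normalized log2 signal of 14.31 on array 1 and 14.73 on array 2 in the RNA labelled Gata2cKO, against 13.82 and 13.91 in the RNA labelled control. Both Gata2cKO values lay above both control values, as for Eya1 and Eya2 below. The share of all genes without overlap was not counted, so nothing is read from this. The log2 ratio was 0.49 on array 1 and 0.81 on array 2. Their mean was 0.65 ± 0.226 (SD, n = 2; 95% interval 0.35 to 0.96) or 1.57-fold, with an unadjusted p of 0.00225 and an adjusted p of 0.212 by limma. The adjusted p was 0.0103 when limma's variance was allowed to follow signal strength and was made robust to outlying genes, where 375 genes passed in place of 18. Over all alternatives it ranged from 0.0103 to 0.9999. Dach1 probe 2 gave 0.32 and 0.55. All 10 ratios of the 5 Dach probes were positive, the lowest 0.324 and the highest 1.36. Most of these are of Dach2, chosen as higher, and probes on the same arrays are not replicates. Nothing is read from their shared sign.

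The brightness of Dach1 bears on its error. It stood at the 79.1st percentile of brightness, and Eya4 at the 77.6th and Eya1 at the 85.9th. Among the 5127 brightest genes, the top 25%, the ratios of the arrays correlated at r = -0.572 across genes, which are not independent replicates, against 0.389 in the other 15380. Opposite signs were thus common among the brightest genes, between arrays that differ in both sex and dye orientation. Of the brightest genes 4 were at least 1.5-fold on both arrays with the same sign, against 142 of the others. Dach1 had the same sign on both arrays and was below 1.5-fold on the first.

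Six4 and the 3 Eya genes differed little between the RNAs. Six4, a homeodomain factor that acts in muscle and kidney precursors, had normalized log2 signals of 12.62 and 12.80 in the RNA labelled Gata2cKO and 12.59 and 12.66 in the RNA labelled control. These values overlapped. The log2 ratio was 0.03 on array 1 and 0.14 on array 2 (mean 0.08 ± 0.0755, SD, n = 2; 95% interval -0.18 to 0.35; adjusted p = 0.95 by limma).

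Eya1, the coactivator known for its part in starting the kidney, had log2 signals of 15.05 and 15.00 in the RNA labelled Gata2cKO and 14.81 and 14.85 in the RNA labelled control. They did not overlap, by a small margin. Its log2 ratios were 0.24 and 0.15 (mean 0.19 ± 0.0633, SD, n = 2; 95% interval -0.07 to 0.46; adjusted p = 0.790 by limma). The repeat in its probe, printed above, applies to this value.

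Eya2, a coactivator of the same family, had log2 signals of 11.74 and 11.80 in the RNA labelled Gata2cKO against 11.71 and 11.67 in the RNA labelled control. They did not overlap, by a small margin. The Eya2 ratios were 0.03 and 0.13 (mean 0.08 ± 0.0680, SD, n = 2; 95% interval -0.18 to 0.34; adjusted p = 0.95 by limma). Eya4, known in people for hearing and heart muscle disease, had 13.97 and 14.28 in the RNA labelled Gata2cKO against 13.97 and 14.00 in the RNA labelled control, which overlapped. On array 1 its RNAs were level (log2 ratio 0.00103) and on array 2 they were apart by 0.28 (mean 0.14 ± 0.196, SD, n = 2; 95% interval -0.16 to 0.44; adjusted p = 0.890 by limma). The intervals of Six4, Eya1, Eya2 and Eya4 all end below the 1.5-fold mark of 0.585 in log2. They rest mostly on limma's variance shared over all genes, not on the gene's own SD. From the SD of 2 arrays alone each would be wider, so a change of 1.5-fold is not excluded. Missing the threshold does not show that a gene was unchanged.

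**Figure D2:**
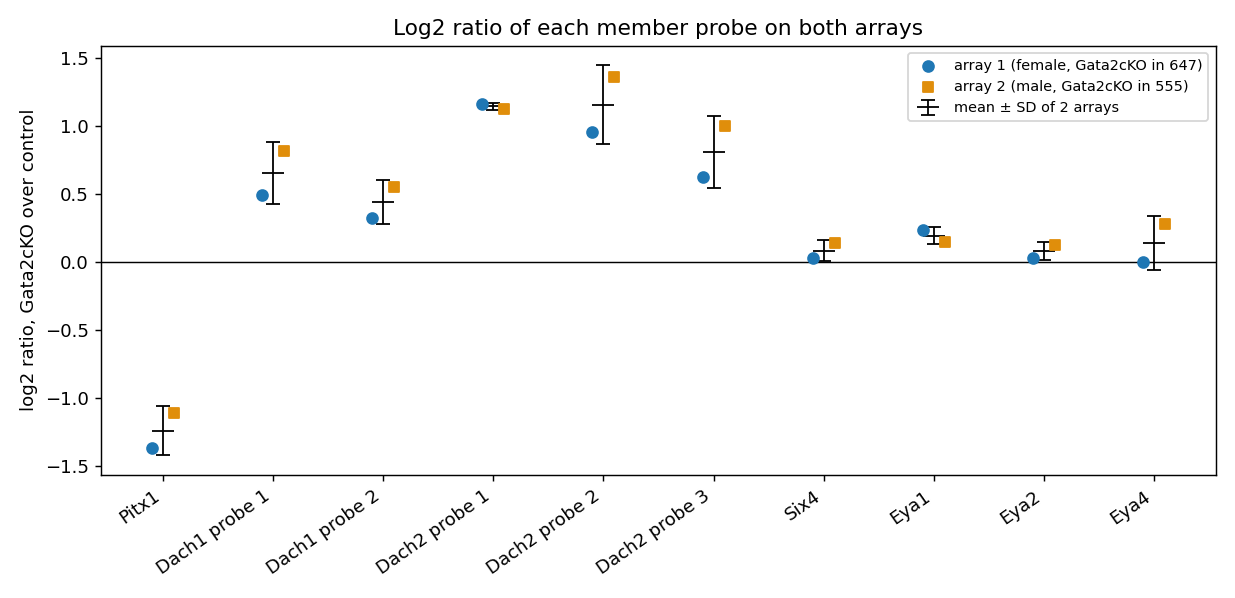
Log2 ratio of Gata2cKO over control for each probe on array 1 (blue) and array 2 (orange), with the mean and SD of the 2 arrays in black. The 5 Dach probes lie between 0.324 and 1.36, Pitx1 lies at -1.37 and -1.11, and Six4 and the Eya genes lie between 0.00103 and 0.278.

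Set against the whole array, the 5 genes not chosen for their ratios had a median log2 ratio of 0.139, against 0.00284 over all genes tested. None of the 5 passed an adjusted p of 0.05 by limma, where 0.0878% of genes did, and 1 had an unadjusted p under 0.05, as did 1470 of all genes (7.17%). All 5 were higher on both arrays, as 27.0% of the genes tested were, while 26.2% were lower on both and 53.2% had the same sign on both. At least 1.5-fold on both arrays were 0 of the 5 and 0.712% of all. In the authors' deposited table, Six4 was lower in both columns (log2 -0.12 and -0.18), as was Eya2 (-0.23 and -0.17), and Eya1 was lower in 1 (-0.10 and 0.65), so the shared direction of the 5 does not hold there. Nor does it hold with median centring in place of loess, which gave Eya1 0.47 and -0.17 and Six4 0.13 and -0.01 on the arrays. With the processed signals of the scanner software Eya4 was at -0.02 on array 1. That table gave Pitx1 at -2.04 and -1.68, Dach2 at 1.32 and 0.94 with probe 1, and Dach1 at 1.01 and 0.81 with probe 1. No source used here says how that table was made. Its sign was set by the correlation with the scanner ratios (r = 0.361 and 0.277 across probes), and its scale and centring stay unknown, with a median entry of 1 in both columns.

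**Figure D3:**
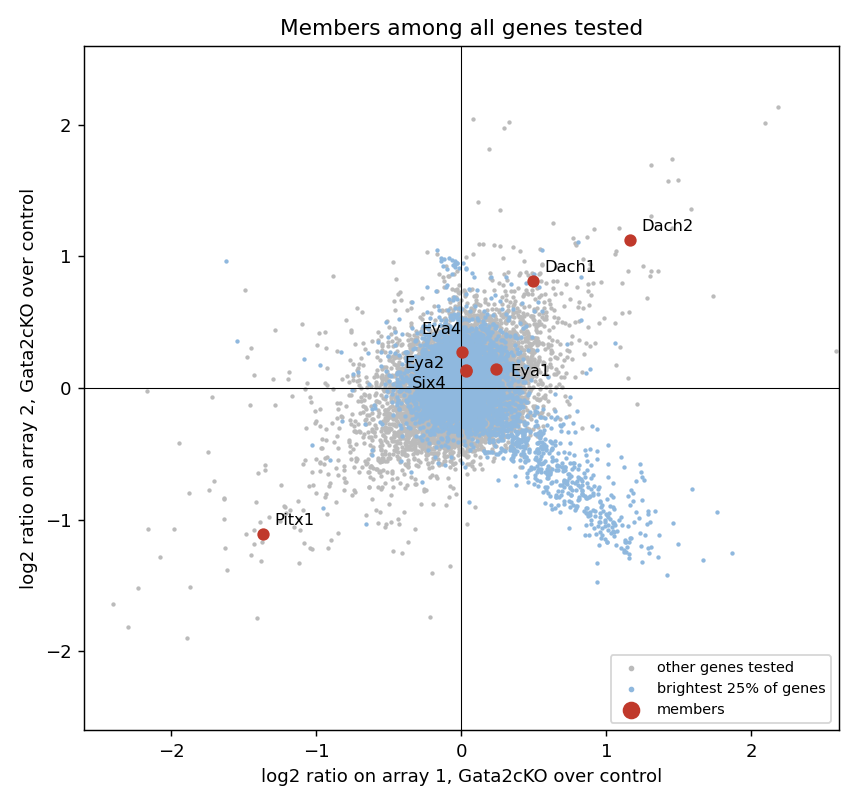
Log2 ratio on array 1 (x axis) against array 2 (y axis) for the 20507 genes tested, with the 7 members in red and the brightest 25% of genes in blue (1 gene lies outside the axes, which end at 2.6). Pitx1 sits in the lower left and Dach2 and Dach1 in the upper right, while the other 4 lie in the central mass and the blue genes run from the centre to the lower right.

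The genes with the ratios nearest to those of Pitx1, by Euclidean distance over the 2 arrays, were C2cd4b (-1.37 and -1.17), the catecholamine synthesis gene Th (-1.43 and -1.08) and Colq (-1.43 and -1.19), which encodes the collagen tail of acetylcholinesterase. Nearest to Dach2 were an entry named by a transcript identifier alone (1.09 and 1.22), the fatty acid activating enzyme gene Acsl1 (1.06 and 1.04) and Neto2 (1.06 and 1.02), which encodes an auxiliary subunit of glutamate receptors. Likeness over 2 arrays is a description and says nothing of a shared regulator.

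Several marker lists were lower too, and their counts stand against 27.0% of all genes higher and 26.2% lower on both arrays. The lists were chosen with earlier results of these data known, and Pitx1 for its ratio. The counts are therefore a description, and no link to Pitx1 is read from them. Of 15 markers of neurons and glia 12 were lower on both arrays and 1 higher, and their mean normalized log2 signal was 10.80 on each array in the RNA labelled Gata2cKO, against 11.63 and 11.35 in the RNA labelled control. All 8 smooth muscle markers were lower on both arrays (mean 11.43 and 11.38 in the RNA labelled Gata2cKO, against 12.05 and 12.18 in the RNA labelled control). So were 9 of 10 skeletal muscle markers tested, with 9.33 and 8.81 in the RNA labelled Gata2cKO against 9.63 and 9.60 in the RNA labelled control. Ckm and Mylpf, also on that list, did not pass the filter on dim probes. Of 8 macrophage markers 6 were lower and 0 higher on both arrays, of 8 endothelial markers 4 were lower and 1 higher, and of 7 erythroid markers 4 were lower and 1 higher. Urothelium markers were higher on both arrays in 9 of 13 and lower in 0, and ureteric mesenchyme markers were higher in 4 of 9 and lower in 2. Kidney progenitor and epithelium markers, a list that holds Eya1, were higher on both in 5 of 10 and lower in 3. By limma 1 marker in all these lists, the neuronal filament gene Prph, passed an adjusted p of 0.05 (-1.38 and -1.32 on the arrays; adjusted p = 0.0381), and the part of any of these cells in the values of the 7 genes was not tested.

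Other family members of the 7 genes were followed as well. Six2, which keeps nephron progenitors undifferentiated, had 0.23 on array 1 and 1.09 on array 2 (mean 0.66 ± 0.608, SD, n = 2; adjusted p = 0.555 by limma) and -0.25 as the mean of the authors' deposited table. Six5 gave -0.03 and -0.11 and Eya3 gave 0.04 and 0.12. Pitx3 gave -0.08 and 0.01, while Six3 and Six6 were not well above background on both arrays of either RNA. Six5 and Pitx3 were higher, at 0.18 and 0.25, as means of the authors' deposited table.

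Partners and targets of these factors were counted from lists. Of 49 genes in 8 lists 37 were tested, and 17 of them were higher on both arrays and 10 lower (median log2 ratio 0.0436). By limma 0 passed an adjusted p of 0.05, and 15 of the 37 had an unadjusted p under 0.05, a rule that 7.17% of all genes met. Over all genes 27.0% were higher and 26.2% lower on both arrays. The lists were chosen with earlier results of these data known, so nothing is read from these shares. Among 10 tested targets of Six4-type and Eya factors, 5 were higher and 2 lower on both arrays (median 0.147). Grem1, a secreted BMP antagonist, gave 0.70 and 0.62 (adjusted p = 0.165 by limma) from a dim probe at percentile 5.23 of brightness. It was the only partner gene at least 1.5-fold on both arrays with the same sign. Myog, a driver of muscle differentiation, gave -0.41 and -1.26 (adjusted p = 0.367 by limma), beside the skeletal muscle markers above. Gdnf gave 0.15 and 1.09 and the zinc finger gene Sall1 gave 0.46 and 0.71, values that were picked out after they were seen.

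Around Pitx1, Isl1, which acts before Pitx1 in the hindlimb, gave -0.50 and -0.32 (adjusted p = 0.423 by limma), and was named after its values were seen. Of the 6 genes tested on that list 2 were higher on both arrays and 2 lower (median 0.0382). Egr1, a partner of Pitx1 in the pituitary, gave 0.36 and 0.60, and Hoxc11 gave 0.45 and 0.42. Hoxc11 stood at percentile 0.870 of brightness, and the authors' deposited table had it at -0.13. The hindlimb target Tbx4 gave -0.01 and 0.15 and Pomc, the pituitary hormone gene that Pitx1 activates, -0.15 and -0.27. These last pairs were likewise picked out after they were seen.

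Of the kidney and ureter partners 5 of 8 were higher and 2 lower on both arrays (median 0.198). Tshz3, which is needed for ureteric smooth muscle, gave 0.61 and 0.44 (adjusted p = 0.263 by limma) and Hoxa11, of the group that works with Eya1, gave 0.32 and 0.52 (adjusted p = 0.423 by limma). Tbx18, with 1 copy replaced by Cre, gave 0.65 and 0.15. Among Pax partners 2 of 6 were detected, and Pax8, a kidney regulator, gave 0.29 and 0.32 here and -0.13 as the mean of the authors' deposited table, while Pax2 gave 0.03 and -0.07. The Ski/Sno relatives and corepressors of Dach had 2 of 6 higher and 2 lower on both arrays (median -0.0215). Skil gave 0.09 and 0.14 and, as the mean of the authors' deposited table, -0.15.

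**Figure D4:**
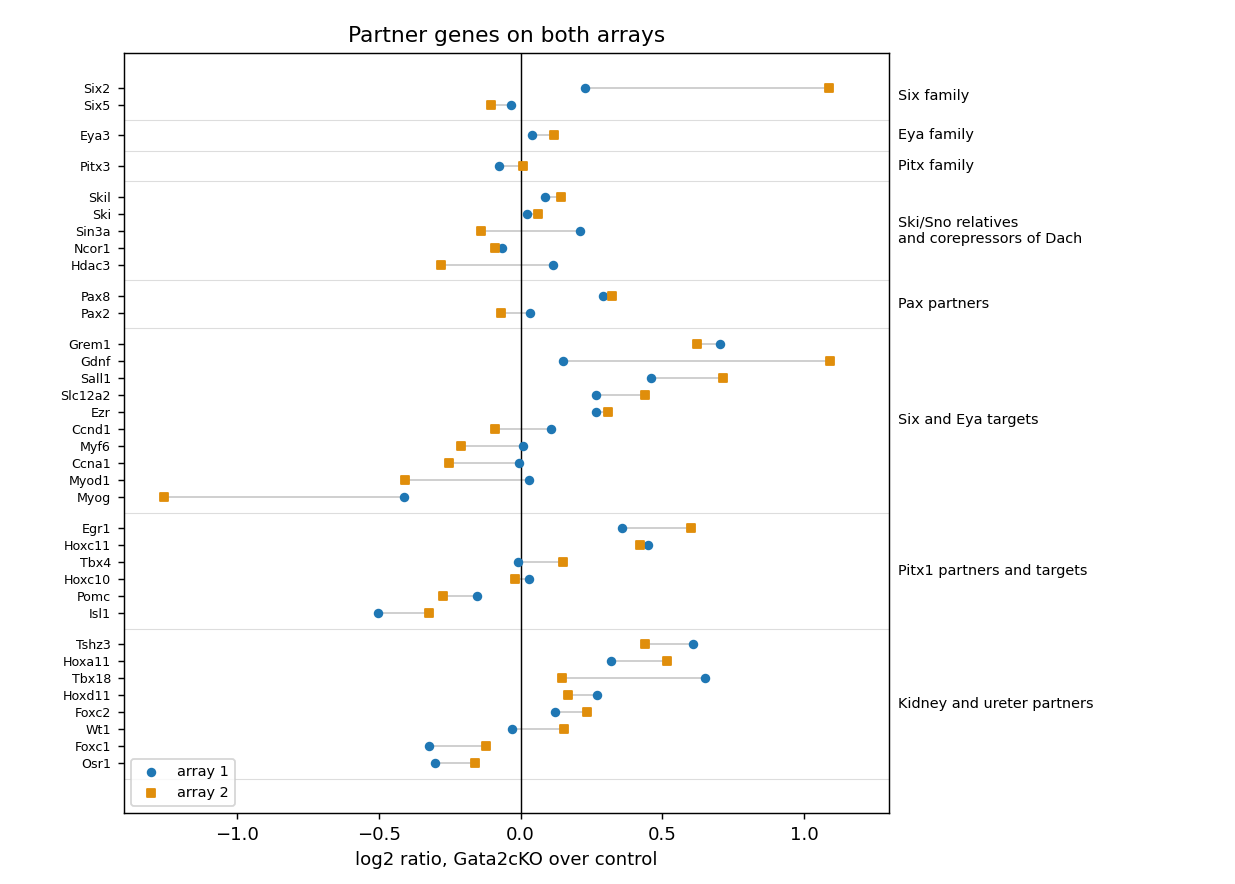
Log2 ratio of Gata2cKO over control on array 1 (blue circles) and array 2 (orange squares) for 35 of the 37 partner genes tested, grouped by list and joined by a line. Grem1 lies at 0.70 and 0.62, while Six2, Gdnf and Myog lie far out on array 2 alone, at 1.09, 1.09 and -1.26.

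The ratios of the 7 genes were also computed in other ways, some of which cannot change a ratio. Of the 9 alternatives the deposited table stood farthest from the reported value for each gene except Dach2, for which it was the mean over the probes.

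**Figure D5:**
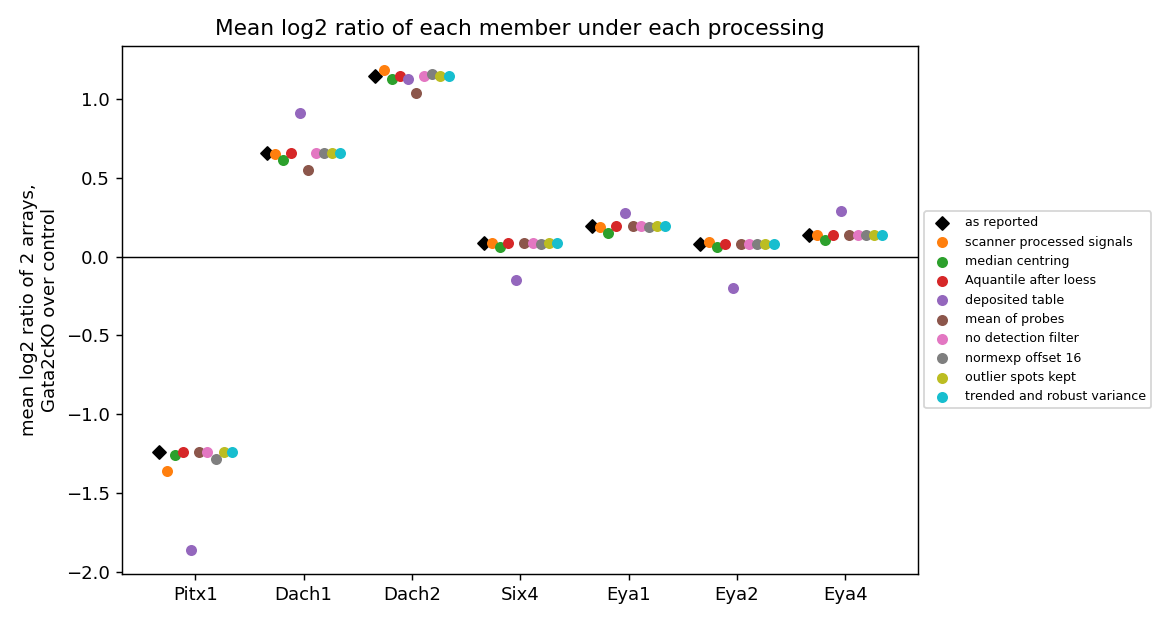
Mean log2 ratio over 2 arrays, Gata2cKO over control (y axis), of the 7 genes (x axis) under the reported processing (black diamonds) and 9 alternatives (coloured circles). Pitx1 stays between -1.86 and -1.24, Dach2 between 1.04 and 1.18 and Dach1 between 0.546 and 0.908, while Six4 and Eya2 fall below 0 in the deposited table.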

How the data were processed

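Per the file headers, the authors scanned Agilent design 026655 and read it with Feature Extraction 10.7.3.1, with coordinates on mm9. The deposited mean spot signal and median local background are intensity values with no normalization. The processed signals and their log10 ratio had been background-subtracted, detrended and dye-normalized by that software, per the file headers. The authors' deposited table is a score, a signed fold with no entry between -1 and 1, used as log2 of the fold with its sign, its origin not given in the sources used here.

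From the scanner files, intensity was corrected by normexp (offset 50) and normalized within each array (loess, span 0.3), giving control spots and outlier spots weight 0. Log2 ratios were turned to Gata2cKO over control. Probes well above background on both arrays in at least 1 RNA were kept (25658), and a gene is its brightest probe (20507 genes). Levels per RNA are after Aquantile as well. Ratios were tested against 0 with limma 3.58.1 in R 4.3.3 (lmFit, eBayes), two-sided, with Benjamini-Hochberg adjustment over all genes and a threshold of 0.05. There was 1 residual degree of freedom and a prior of 4.68 with an SD of 0.163. No replicate but the array exists, so sex, dye orientation and array cannot be told apart. Of the probes, 26412 were named through RefSeq accessions (GRCm38.p6) and 13017 by the file. The functions were tested on simulated data.

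Some listed genes count in the lists but are not reported here by name. The genes and lists were chosen with earlier results of these data known. Named genes are all members, Gata2 and Tbx18, all genes of the Pitx, Eya and sine oculis (Six4) families, from each list those past the threshold or else the 2 with the largest ratio of one sign on both arrays, and the 3 nearest genes to Pitx1 and Dach2. Python 3.11.15 with pandas 2.3.3 drew the figures through matplotlib 3.10.9.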

Additional observations from a re-analysis of the deposited data

Results flagged for a closer look

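On array 1, labelled female, the Y-linked genes Ddx3y and Eif2s3y stood well above background for the Gata2cKO label, at signals of 664.8 and 850.8, and not in the RNA labelled control, at 50.1 and 58.9. These probes lie outside the comparison of the 7 genes and were above the level of the control RNA. Xist, made from an inactive X chromosome, gave 10198 in Gata2cKO and 5056 in control on that array, and 62.7 in Gata2cKO and 103.5 in control on the male array. All these signals still carry the difference between the dyes. After normalization the log2 ratio of Xist was 0.18 on array 1 and -0.29 on the male array. Dach2 is X-linked and had a log2 ratio of 1.13 on the male array and 1.16 on array 1.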

How the results depend on the processing

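Over 9 alternatives Pitx1 was lower and Dach1, Dach2, Eya1 and Eya4 were higher in mean ratio, and Six4 and Eya2 kept their sign in 8. Not all of these could differ. Aquantile after loess, no filter on detection and the trended and robust variance gave each member its reported ratio. The mean over probes cannot move a gene with 1 probe. On single arrays, median centring put Eya1 at -0.17 and Six4 at -0.01 on array 2, and processed signals put Eya4 at -0.02 on array 1. In the deposited table Six4 was at -0.15 and Eya2 at -0.20, Pitx1 at -1.86, and the cause was not tested. Dach2 was at 1.18 with processed scanner signals and 1.04 over the mean of its probes, which adds its dimmer probes. With a trended and robust variance Dach1 passed at the same ratio of 0.65. Its adjusted p ranged from 0.0103 to 0.9999 over the alternatives. The 18 genes past the threshold became 165 with processed signals, 0 with median centring (492 at an unadjusted p under 0.05), 0 in the deposited table (972 unadjusted), 54 with no filter on detection, 41 with an offset of 16, 28 with outlier spots kept and 375 with the trended and robust variance. The 146 genes at least 1.5-fold on both arrays, 56 of them higher, became 284 with processed signals (116 higher) and 393 in the deposited table (209 higher), and 701 to 708 on 1 array alone. No test was possible with 1 array left out, since no residual degrees of freedom remain. The reported test is itself paired, since each ratio sets the RNAs of 1 array against each other, so no replicate block could be added to it. With 2 arrays the number of arrays limits the precision.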

Other observations

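Neighbours on the chromosome were taken in the gene order of GRCm38.p6, after the values of the 7 genes were known. The tested neighbours of Pitx1, Dach1 and Dach2 did not differ by the same amount as these genes. This does not cover the neighbours of Six4 and the Eya genes. Pitx1 and Dach1 each had a neighbour that was not tested. Pitx1 and Dach2 were chosen for their ratios, so nothing is read from the smaller ratios beside them. The neighbours of Dach2 were higher on both arrays, as Dach2 was. Macroh2a1, a histone variant gene beside Pitx1, gave log2 ratios of 0.06 and 0.03 on the arrays, against -1.37 and -1.11 for Pitx1. Beside Dach2, Chm, which encodes a protein that helps attach lipids to Rab proteins, gave 0.18 and 0.46, and Klhl4 gave 0.08 and 0.44. Mzt1, next to Dach1, gave -0.18 and -0.02.

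RefSeq promoter windows (GRCm38.p6, 250 bases before to 50 after a start) were at hand for Dach1, Dach2, Six4 and Eya4. The GATA motif letters AGATAA or AGATAG, and likewise TGATAA or TGATAG, searched on both strands, were in 0 windows of Dach1, Dach2 and Eya4 and in 1 of 2 windows of Six4, and in 29.76% of all 32851 windows. A match is a description of letters, and none says only that they are not in this window.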
